A study of Mus musculus with 3 samples.

Results

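TRBV19 contigs are assembled transcripts of the T cell receptor (TCR) β chain locus that carry the variable segment TRBV19, known as Vβ6 in the older naming. They were taken from the deposited table of TCR contigs by 3 conditions: β chain, variable gene TRBV19, and a cell barcode that is also in the gene expression matrix. There were 1484 such contigs in 1482 of 12208 matrix cells, and 2 cells had 2 contigs. The cells were thymocytes pooled from 8 female mice aged 7 to 12 weeks of the strain that the labels spell as a C56Bl/6 cross of Tcliβ, TCRα+/- and Foxp3-GFP. All 6 groups thus shared the TCliβ transgene, 1 intact α allele, the Foxp3 reporter and a sort for surface Vα2. The promoter of the transgene is not given in the sources used here, and the labels do not say which mouse a cell came from.

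The regulatory T cells (Treg) at the end of the path were sorted into 2401 cells with CD73 (CD73+ Treg) and 454 without it (CD73- Treg). Their progenitors were sorted as 1393 cells with low Foxp3 (Foxp3lo TRP) and 2503 with CD25 (CD25+ TRP). The earlier stages were 2436 CD4 single-positive cells without CD73, CD25 or Foxp3 (CD4 SP) and 3021 CD4+CD8+ double-positive cells (DP). DP cells came from whole thymus and the others from thymus depleted of CD8+ cells. Each population was 1 sorted sample with its own hashtag, so no comparison below has a replicate or a test. Intervals are exact Clopper-Pearson 95% intervals for shares and exact 95% order-statistic intervals for medians. They cover counting error over cells only, and cells of 1 pool are not replicates. For a count of 0, the share said to be allowed is instead that of 3 counts, which is lower than the exact upper bound.

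A TCR β chain is built from a variable (V), a diversity (D) and a joining (J) segment spliced to a constant (C) segment, and the third complementarity-determining region (CDR3) spans the V-D-J joint. In an unmanipulated thymocyte this joint differs from cell to cell, and a functional β chain stops rearrangement of the other β allele, which is called allelic exclusion. A β chain transgene supplies a finished chain early, so that most cells are known to carry the same β chain while the α chain is still free to vary. In DP cells the α locus is rearranging, and the cells are tested for the fit of the resulting receptor before they become single-positive.

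The labels name the transgene but not its gene segments. One CDR3β amino acid sequence of 14 residues made up 1438 of 1484 TRBV19 contigs (96.9%, 95% interval 95.9 to 97.7), and 1 nucleotide form of it made up 1431 (96.4%, 95.4 to 97.3). It is called the majority CDR3 below, and no sequence of the transgene was at hand to compare it with. Its 42 bases are set here beside the mouse germline segments (GRCm38, GENCODE M21, all on the plus strand of chromosome 6), to show which bases each segment accounts for. In the majority CDR3 the capitals are the 9 bases between V and J, in Trbd1 they are the same 9 bases, and in Trbv19 and Trbj2-2 they are germline bases that the CDR3 lacks.
Majority CDR3: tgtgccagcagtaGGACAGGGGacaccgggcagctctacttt
Trbv19 germline, from the cysteine codon: tgtgccagcagtaTAG
Trbd1 germline: gGGACAGGGGgc
Trbj2-2 germline, to the end of the CDR3: CAAacaccgggcagctctacttt

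The first 13 bases matched Trbv19 and the last 20 matched Trbj2-2. All 9 bases between them were found in Trbd1 without a mismatch, while the longest stretch shared with Trbd2 was 5 bases. The joint as read this way lacks 3 germline bases of V and 3 of J and needs no base outside V, D and J. The contig table itself named a D gene in 0 of 1484 contigs. Trbv19 lies at chr6:41178375-41179048, with exons at chr6:41178375-41178637 and chr6:41178746-41179048. Trbd1 lies at chr6:41533201-41533212 and Trbj2-2 at chr6:41542957-41543007. Trbc1, the constant gene between the Trbd1 and Trbd2 clusters, lies at chr6:41538218-41539881, and Trbc2, the constant gene downstream of the Trbj2 segments, at chr6:41546730-41548352.

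TRBV19 dominated the β chains that were read. Of 2184 β contigs in matrix cells, 1484 were TRBV19 (67.9%, 65.9 to 69.9), 530 had no V gene named and 170 had another V gene. Among the 1654 with a V gene the TRBV19 share was 89.7% (88.2 to 91.1). By population this share was 126 of 134 in Foxp3lo TRP (94.0%), 413 of 451 in CD25+ TRP (91.6%), 377 of 415 in CD4 SP (90.8%), 237 of 272 in CD73+ Treg (87.1%), 27 of 31 in CD73- Treg (87.1%) and 304 of 351 in DP (86.6%). The intervals of these 6 shares overlapped throughout, from 82.6 to 90.0 in DP to 88.6 to 97.4 in Foxp3lo TRP.

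The V genes next in number were TRBV31 with 35 contigs, TRBV15 with 21 and TRBV13-1 with 16. The median TRBV31 contig had 6 unique molecular identifiers (UMIs, each a count of 1 captured molecule), the median TRBV15 contig 10 and the median TRBV13-1 contig 9, against 12 for TRBV19. TRBV31 was found in 7 DP cells, 11 CD4 SP cells and 8 CD25+ TRP cells, with 5 in CD73+ Treg, 3 in Foxp3lo TRP and 1 in CD73- Treg. TRBV15 had 7 of its 21 contigs in DP, and TRBV13-1 had 5 of 16 each in DP and CD73+ Treg. Cells with TRBV19 also held a contig of another β V gene in 26 of 1482 cases (1.75%, 1.15 to 2.56), and a productive one in 16 (1.08%, 0.618 to 1.75). Cells in the contig table without TRBV19 held another β V gene in 143 of 5897 cases (2.42%, 2.05 to 2.85), an interval that overlaps the first.

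Recovery of the chain was low, since only 1482 of 12208 cells (12.1%, 11.6 to 12.7) gave a TRBV19 contig, although every mouse in the pool carried the transgene per the labels. A productive α contig was found in 7312 cells in the same library, which the labels describe as enriched for α. The 7642 productive α contigs summed to 155559 UMIs and the TRBV19 contigs to 20525 UMIs. Gene expression depth was 34190869 UMIs in all, with a median of 2415.5 UMIs per cell. No cell type in the series is known to lack the transgene, so the level of TRBV19 contigs from free RNA could not be measured.

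Recovery differed between the populations. Of 2503 CD25+ TRP cells 413 gave a TRBV19 contig (16.5%, 15.1 to 18.0), and of 2436 CD4 SP cells 376 did (15.4%, 14 to 16.9). It was found in 304 of 3021 DP cells (10.1%, 9.01 to 11.2), 236 of 2401 CD73+ Treg cells (9.83%, 8.67 to 11.1) and 126 of 1393 Foxp3lo TRP cells (9.05%, 7.59 to 10.7). CD73- Treg was lowest with 27 of 454 cells (5.95%, 3.96 to 8.54). The intervals of CD25+ TRP and CD4 SP overlapped each other and lay above those of the other 4 populations, while DP, CD73+ Treg and Foxp3lo TRP did not differ beyond their intervals. That of CD73- Treg overlapped only with Foxp3lo TRP.

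The populations also differed in UMIs per cell, and recovery moved with that depth. The median cell had 1457 UMIs in DP, 2114 in Foxp3lo TRP, 2575.5 in CD73- Treg, 2680 in CD73+ Treg, 2718 in CD4 SP and 3248 in CD25+ TRP. Over all cells, recovery was 4.75% (4.02 to 5.57) in the lowest quartile of cell UMIs (507 to 1726), 9.21% (8.20 to 10.3) in the second, 11.1% (10.0 to 12.3) in the third and 23.5% (22 to 25.0) in the highest (3294 to 44547). In the same quartiles α recovery was 38.7%, 59.0%, 68.4% and 73.5%, so the step from the third to the highest quartile was larger for TRBV19 than for α. Cells with TRBV19 had a median of 3225.5 UMIs and cells without it 2327, and the former was higher in each of the 6 populations.

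**Figure D1:**
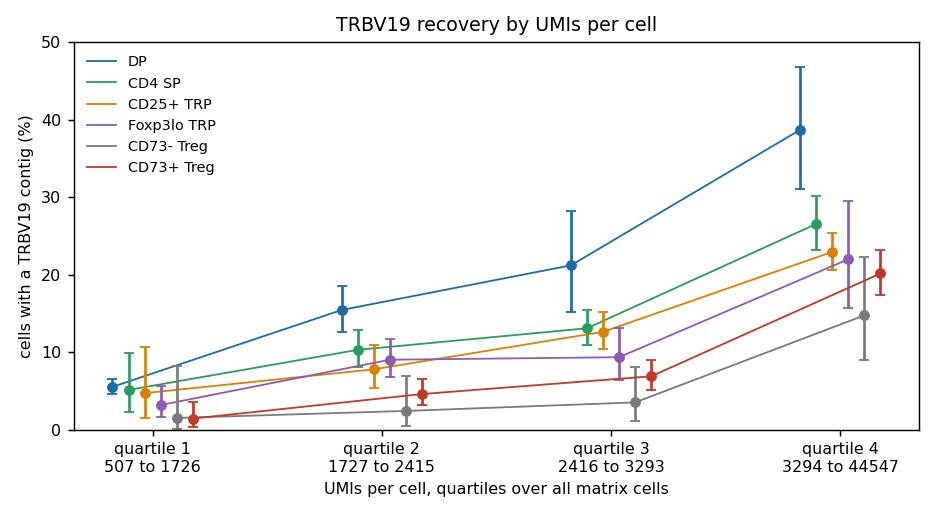
Share of cells with a TRBV19 contig (%) on the vertical axis against quartile of UMIs per cell over all matrix cells, for the 6 populations. Points are shares and bars their exact 95% intervals. The DP line lies highest in each quartile, narrowly in the lowest, and reaches 38.7% in the highest.

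DP cells had the highest recovery in each quartile, by margins that varied. In the lowest quartile recovery was 5.53% in DP (116 of 2099 cells, 4.59 to 6.59), 5.13% in CD4 SP (8 of 156) and 4.72% in CD25+ TRP (5 of 106). In the second it was 15.4% in DP (93 of 602, 12.7 to 18.6), 10.3% in CD4 SP (8.14 to 12.8) and 7.79% in CD25+ TRP (5.35 to 10.9). In the third it was 21.2% in DP (35 of 165, 15.2 to 28.2) and 13.1% in CD4 SP (11 to 15.4), whose intervals overlapped. In the highest it was 38.7% in DP (60 of 155, 31.0 to 46.9) and 26.6% in CD4 SP (23.2 to 30.1), followed by CD25+ TRP with 22.9% (20.6 to 25.4), Foxp3lo TRP with 22% (15.7 to 29.5), CD73+ Treg with 20.2% (17.4 to 23.2) and CD73- Treg with 14.8% (8.98 to 22.3). The DP interval lay above the other 5 in the highest quartile over all its cells, but this quartile held an uneven mix of clusters. Of its DP cells, 101 of 155 (65.2%) were in the authors' cluster 11, against 119 of 659 CD4 SP cells (18.1%), 121 of 1207 CD25+ TRP cells (10.0%) and 0.667% to 3.95% of the other 3 populations. Inside cluster 11 the intervals overlapped and DP was not highest: recovery in this quartile was 38.6% in DP (39 of 101, 29.1 to 48.8), 36.1% in CD4 SP (27.5 to 45.4) and 42.1% in CD25+ TRP (33.2 to 51.5). Outside it, recovery was 38.9% in DP (21 of 54, 25.9 to 53.1), 24.4% in CD4 SP (20.9 to 28.3), 21.5% in Foxp3lo TRP (15.2 to 28.9) and 20.8% in CD25+ TRP (18.4 to 23.3), and the DP interval overlapped with CD4 SP and Foxp3lo TRP. In the second and the third it lay above 4 of them and overlapped with CD4 SP, and in the lowest it lay above CD73+ Treg (1.43%, 0.392 to 3.63) only.

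When each population was weighted to the same mix of UMI quartiles, the order changed. DP moved from the third place to the first, at 20.2%, followed by CD4 SP at 13.8%, CD25+ TRP at 12.0%, Foxp3lo TRP at 10.9%, CD73+ Treg at 8.27% and CD73- Treg at 5.55%. These standardised values rest on as few as 155 DP cells and 66 CD73- Treg cells in a quartile, and carry no interval. Without cluster 11 they were 20.2% in DP and 13.3% in CD4 SP, with as few as 54 DP cells in a quartile. Cells of 1 quartile could still differ in depth, since the highest spanned 3294 to 44547 UMIs. The populations were thus not compared at equal depth. DP cells were also the only ones not taken through CD8 depletion, and the part of that step in the difference cannot be told apart from the population.

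**Figure D2:**
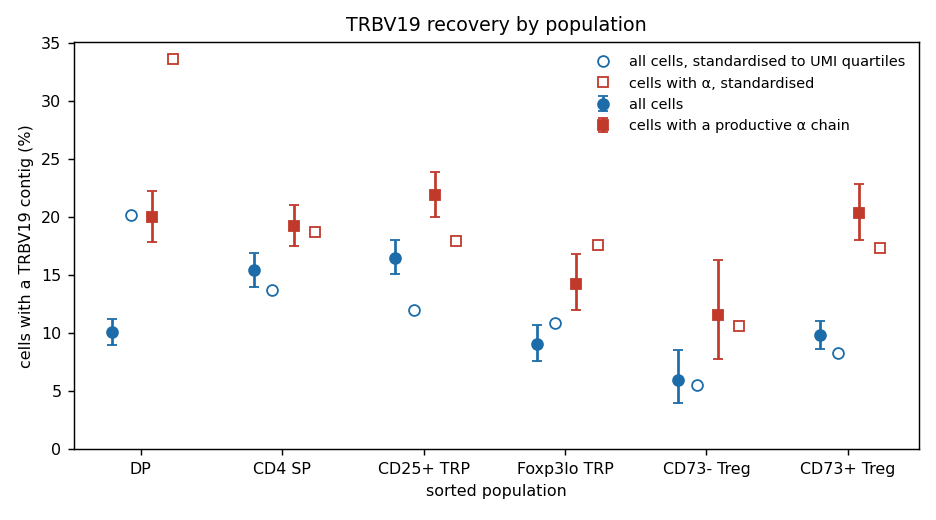
Share of cells with a TRBV19 contig (%) by sorted population, for all cells (circles) and for cells with a productive α chain (squares). Filled points are shares as counted with exact 95% intervals and open points are standardised to UMI quartiles; the open points put DP first, at 20.2% of all cells and 33.6% of cells with α.

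TRBV19 was read mostly in cells that also gave an α chain. Of 7312 cells with a productive α contig, 1420 had TRBV19 (19.4%, 18.5 to 20.3), against 62 of 4896 cells without one (1.27%, 0.972 to 1.62). Only 67 of the 4896 had any contig listed, and TRBV19 was found in 62 of the 67 (92.5%, 83.4 to 97.5). A cell with no listed contig could not count as a TRBV19 cell, so the contrast depends on which cells were listed. A link between the 2 chains beyond that was not tested. Among cells with α, recovery was 21.9% in CD25+ TRP (20.1 to 23.9), 20.4% in CD73+ Treg (18.1 to 22.9), 20.0% in DP (17.9 to 22.3), 19.3% in CD4 SP (17.5 to 21.1), 14.3% in Foxp3lo TRP (12.0 to 16.8) and 11.5% in CD73- Treg (7.74 to 16.3). The first 4 of these overlapped, and the last 2 lay below each of those 4. CD73+ Treg and DP were thus level with CD4 SP and CD25+ TRP in this subset, while over all cells they were lower. Their α recovery was lower too, at 46.8% in CD73+ Treg and 43.3% in DP against 79.5% in CD4 SP and 74.4% in CD25+ TRP. Standardised to UMI quartiles, recovery in cells with α was 33.6% in DP and 18.8% in CD4 SP, followed by CD25+ TRP with 17.9%, Foxp3lo TRP with 17.6%, CD73+ Treg with 17.3% and CD73- Treg with 10.6%. In the highest quartile 49 of 92 DP cells with α had TRBV19 (53.3%, 42.6 to 63.7), and the other 5 populations lay between 21.2% and 31.6%. Inside cluster 11 the DP value was 60.4% (29 of 48, 45.3 to 74.2) and overlapped with 52.1% in CD25+ TRP (41.6 to 62.4) and 41.6% in CD4 SP (31.9 to 51.8). Outside it the DP value was 45.5% (20 of 44, 30.4 to 61.2), and the other 5 populations lay between 20.5% and 30.4%. The DP interval there overlapped with those of all 5.

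The 62 cells with TRBV19 and no productive α were mostly DP. They were 42 of 1713 DP cells without α (2.45%, 1.77 to 3.30), 7 of 1278 in CD73+ Treg (0.548%), 5 of 641 in CD25+ TRP (0.780%), 5 of 545 in Foxp3lo TRP (0.917%) and 3 of 499 in CD4 SP (0.601%). CD73- Treg had 0 of 220, which allows a share of up to 1.36%. The DP interval overlapped only with those of CD25+ TRP, whose upper bound was 1.81%, and Foxp3lo TRP, whose upper bound was 2.13%. These shares, too, depend on which cells without α had a contig listed. All 62 had a productive TRBV19 contig, against 1020 of 1422 TRBV19 contigs in cells with α (71.7%, 69.3 to 74.1). Only 67 matrix cells were in the contig table without a productive α, and 62 of the 67 (92.5%) were these, so the 2 productive shares come from differently selected cells. Their TRBV19 contigs had a median of 17.5 UMIs (14 to 19), against 12 (11 to 12) in cells with α. Their median cell depth was lower (2210.5 against 3261.5 UMIs). These 2 sets of contigs are unlike, since all 62 were productive and 42 were in DP. Productive TRBV19 contigs had a median of 14 UMIs over all matrix cells and 18 in DP.

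Recovery was highest in the cells with the most α signal, without a steady rise below that. In quartiles of α UMIs (largest productive α contig of the cell) it was 14.3% (12.7 to 16), 14.4% (12.8 to 16.1), 19.2% (17.4 to 21.1) and 29.8% (27.7 to 32.0). In DP the 4 values were 14.5%, 20.2%, 22.4% and 40.2% (31.6 to 49.2 in the highest quartile, 51 of 127 cells). In CD4 SP they were 15.4%, 13.9%, 20.0% and 27.0%, and in CD73+ Treg 14.8%, 12.3%, 17.9% and 32.2%. The median α contig had 21 UMIs in cells with TRBV19 and 17 in cells with α alone. Across the 1420 cells with both chains, TRBV19 UMIs and α UMIs had a Spearman rho of 0.31 and a Pearson r of 0.39. TRBV19 UMIs and cell UMIs had a rho of 0.36 (r 0.44) across 1482 cells. These points share the library and the depth of the cell, and are given as a description.

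More than 1 productive α chain was also found more often beside TRBV19. It was seen in 180 of 1420 cells with TRBV19 (12.7%, 11 to 14.5) and 150 of 5892 cells with α alone (2.55%, 2.16 to 2.98). The mice carry 1 intact α allele per the labels, so a cell with 2 productive α chains is outside the stated genotype. The shares were 18.5% against 2.90% in CD73- Treg, 18.2% against 3.03% in Foxp3lo TRP, 15.3% against 3.47% in CD73+ Treg, 12.3% against 2.69% in CD4 SP, 11.5% against 2.20% in CD25+ TRP and 9.54% against 1.63% in DP. The 2 intervals did not overlap in 6 of 6 populations. In the highest UMI quartile the shares were 23.4% (163 of 698, 20.3 to 26.7) and 7.57% (117 of 1546, 6.30 to 9.0), and in the lowest 0.813% (1 of 123) and 0.473% (5 of 1057), whose intervals overlapped. Seen from the other side, TRBV19 was found in 180 of 330 cells with 2 or more productive α chains (54.5%, 49.0 to 60.0) and in 1240 of 6982 cells with 1 (17.8%, 16.9 to 18.7). No doublet call was used here, and the part of 2-cell droplets in these shares was not tested.

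Recovery and the α V family showed no relation beyond the intervals, in cells that the sort left with few other families. The sorted Vα2 is the product of the TRAV14 family. Among cells with 1 productive α, TRAV14 was used by 1217 of 1240 with TRBV19 (98.1%, 97.2 to 98.8) and 5607 of 5742 without it (97.6%, 97.2 to 98.0). In DP, the population with most other α chains, TRBV19 was found in 219 of 1156 TRAV14 cells (18.9%, 16.7 to 21.3) and 18 of 110 other cells (16.4%, 10.0 to 24.6). The second interval is wide, so a difference in either direction could be missed.

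The median TRBV19 contig had the most UMIs in DP, though the median varied between clusters of DP cells. The 1484 contigs had 1 to 55 UMIs with a median of 12, and 4 to 280 reads with a median of 40. The median was 15 UMIs in DP (14 to 17; lowest 3, highest 55) and 12 in CD25+ TRP (11 to 13; 2 to 42) and CD73+ Treg (10 to 13; 1 to 53). It was 11 in CD4 SP (10 to 12; 2 to 37) and CD73- Treg (9 to 16; 4 to 26) and 10 in Foxp3lo TRP (9 to 11; 3 to 34). The ranges of single contigs overlapped between all 6 populations, while the DP interval of the median lay above those of the others except CD73- Treg. Reads gave the same highest population, with a median of 50 reads per contig in DP and 34 to 42 elsewhere.

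The difference was wider against the cell's depth, since DP cells had the fewest UMIs. Per 1000 UMIs of the cell, the median TRBV19 cell had 7.11 TRBV19 UMIs in DP (6.58 to 7.70), 3.70 in Foxp3lo TRP, 3.36 in CD4 SP, 3.00 in CD25+ TRP and 2.73 in CD73+ Treg, with CD73- Treg lowest at 2.54. On the same scale the median α contig had 8.47 UMIs in DP and 6.11 to 6.73 elsewhere, a smaller gap. The α medians are over all cells with α, a different set from the cells with TRBV19. Within the highest UMI quartile the median TRBV19 contig had 27 UMIs in DP (22 to 33, 60 contigs) and 13 to 15 in the other 5 populations, with a highest upper bound of 20. Inside cluster 11 these medians were 31 in DP (22 to 39, 39 contigs) and 22 in CD73+ Treg (15 to 43, 13 contigs). They were 19 in CD25+ TRP (17 to 23) and 13 in CD4 SP (13 to 18), and the DP interval lay above that of CD4 SP only. Outside it they were 24 in DP (16 to 29, 21 contigs) and 13 to 14 in the other 5. There the DP interval overlapped with those of Foxp3lo TRP (10 to 17) and CD73- Treg (10 to 20). In the second quartile the median TRBV19 contig had 15 UMIs in DP (12 to 17) and 5 to 9 elsewhere. The TRBV19 medians are over cells in which TRBV19 was found, and recovery itself differed between the populations.

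Against the α chain of the same cell, DP also stood apart. The median cell with both chains had 0.886 TRBV19 UMIs per α UMI in DP (0.800 to 1.00), 0.557 in Foxp3lo TRP (0.467 to 0.625), 0.500 in CD4 SP (0.467 to 0.533), 0.463 in CD25+ TRP (0.429 to 0.500), 0.442 in CD73+ Treg (0.400 to 0.500) and 0.417 in CD73- Treg (0.333 to 0.520). The DP interval lay above the other 5. TRBV19 had more UMIs than α in 103 of 262 DP cells (39.3%, 33.4 to 45.5) and 29 of 121 Foxp3lo TRP cells (24.0%, 16.7 to 32.6). In CD4 SP it did so in 48 of 373 cells (12.9%), in CD73+ Treg in 23 of 229 (10.0%), in CD25+ TRP in 34 of 408 (8.33%) and in CD73- Treg in 1 of 27 (3.70%). Whether α RNA, β RNA or their capture sets this ratio cannot be told apart.

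**Figure D3:**
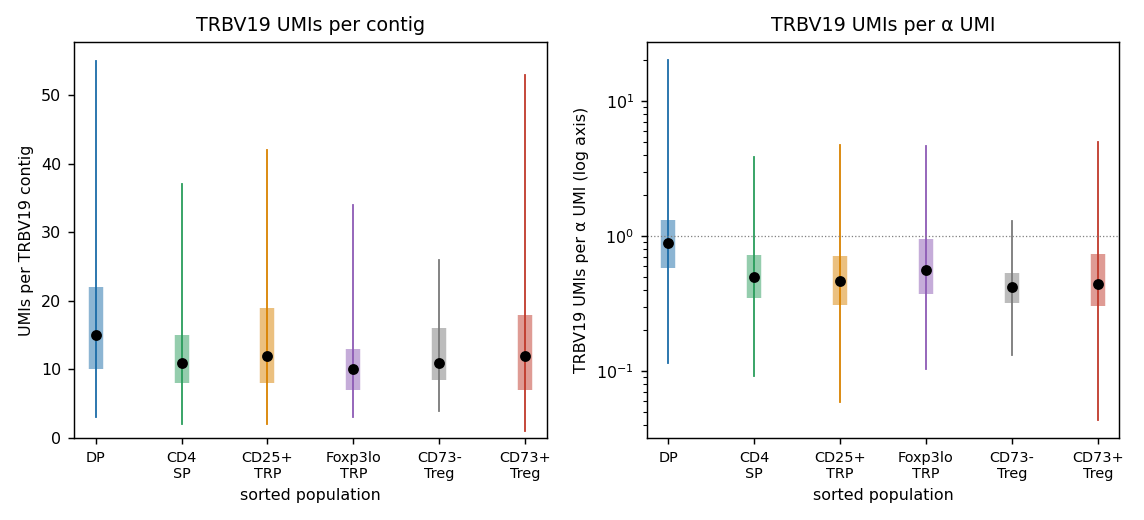
UMIs per TRBV19 contig (left, linear axis) and TRBV19 UMIs per α UMI in cells with both chains (right, log axis) by sorted population. Points are medians, thick bars the middle 50% and thin lines the full range; DP is highest in both, with medians of 15 and 0.886.

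Recovery by the authors' clusters, which carry numbers only here, spanned 3.25% to 38.9%. It was highest in cluster 11, with 149 of 383 cells (38.9%, 34.0 to 44.0), and cluster 14, with 16 of 44 (36.4%, 22.4 to 52.2). Cluster 11 also had the highest depth, with a median of 6079 UMIs per cell, and the median TRBV19 contig there had 20 UMIs. In it the 3 populations with at least 50 cells did not differ beyond their intervals: 51 of 123 CD25+ TRP cells (41.5%), 40 of 104 DP cells (38.5%) and 43 of 121 CD4 SP cells (35.5%) had TRBV19. Cluster 8 was lowest, with 25 of 770 cells (3.25%, 2.11 to 4.76) and a median of 1087 UMIs per cell. Clusters 3 and 4 came next, with 7.16% (5.84 to 8.68) and 7.50% (6.06 to 9.15). Clusters 0, 7 and 10 had 8.34%, 10.3% and 10.7%, and clusters 9, 12 and 13 had 12.8%, 13.3% and 13.3%. Clusters 5, 1, 2 and 6 had 14.7%, 15.3%, 15.6% and 15.6%.

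Recovery in DP cells differed between clusters. Cells of the DP hashtag made up 1187 of 1187 in cluster 4, 832 of 866 in cluster 6 and 769 of 770 in cluster 8. DP recovery was 7.50% in cluster 4 (89 of 1187), 15.6% in cluster 6 (130 of 832) and 3.25% in cluster 8 (25 of 769). Clusters 4 and 6 had close median depths, 1545 and 1600.5 UMIs per cell, while their α recovery was 30.6% and 71.9%. Among cells with α, TRBV19 was found in 18.7% (14.9 to 23.1) in cluster 4 and 20.5% (17.4 to 23.9) in cluster 6, which overlapped. In cluster 8, with an α recovery of 27.9%, it was found in 21 of 215 cells with α (9.77%, 6.15 to 14.5), below both. In plain counts the median TRBV19 contig had 16 UMIs in cluster 4 (13 to 18) and 14 in cluster 6 (12 to 16). In cluster 8 it had 9 UMIs (7 to 11, 25 contigs). Against cell depth, the TRBV19 level in cells where it was found was high in all 3 of these clusters, at 8.39, 7.35 and 7.72 UMIs per 1000 cell UMIs in clusters 4, 6 and 8, against 2.01 to 4.03 in the other 12. The median TRBV19 UMIs per α UMI was 1.00 in cluster 4 (0.846 to 1.25), 0.909 in cluster 6 and 0.750 in cluster 8. Cluster 7, of median depth 4281 UMIs, had the lowest median of both measures, 2.01 per 1000 cell UMIs and 0.317 per α UMI.

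**Figure D4:**
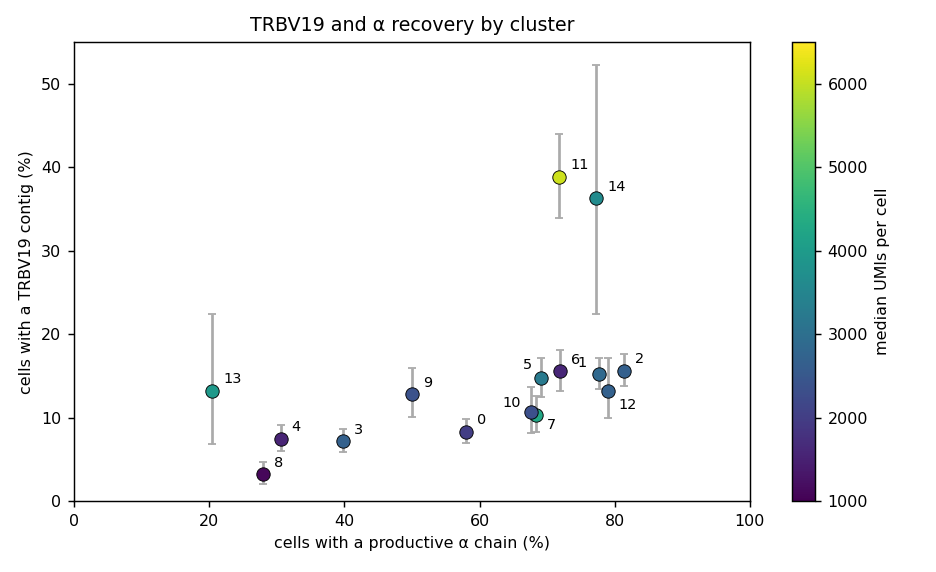
Share of cells with a TRBV19 contig (%) against share with a productive α chain (%) for the 15 clusters, numbered as deposited and coloured by median UMIs per cell. Bars are exact 95% intervals of the TRBV19 share; clusters 11 and 14 lie above the rest at 38.9% and 36.4%, and cluster 13 has 13.3% at the lowest α share.

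The majority CDR3 was the main form in every population. It made up 124 of 126 contigs in Foxp3lo TRP (98.4%, 94.4 to 99.8), 402 of 413 in CD25+ TRP (97.3%, 95.3 to 98.7), 367 of 377 in CD4 SP (97.3%, 95.2 to 98.7), 293 of 304 in DP (96.4%, 93.6 to 98.2), 26 of 27 in CD73- Treg (96.3%, 81.0 to 99.9) and 226 of 237 in CD73+ Treg (95.4%, 91.8 to 97.7). These intervals all overlapped. The remaining 46 contigs had a median of 10 UMIs. Of these, 21 differed by 1 to 4 bases, 13 carried another rearrangement and 12 had no CDR3 named. A further 7 contigs coded the majority amino acids with 1 changed base.

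By amino acids, 18 contigs differed from the majority at 1 residue, 1 at 2 residues and 2 at 3. No contig differed at 4 or 5. Beyond that gap, 2 contigs differed at 6 residues, 1 at 8 and 3 at 9, and 7 had a CDR3 of another length. By bases, 25 contigs differed at 1, 1 at 2 and 2 at 4, and the next differed at 16. The gap between 4 and 16 bases is why the contigs are described as near variants and other rearrangements.

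No near variant reached 3 contigs. Altogether 30 different CDR3β amino acid sequences were read, of which 24 were in 1 contig and 5 in 2. The 5 that recurred are shown, as the variants read in more than 1 cell, with the base that differs in capitals. Each is named by its amino acid change, with residues counted from 1 at the first residue of the CDR3, and then by its base change, with bases counted from 1 at the first base of the CDR3. The fifth was reached by 2 different base changes and is shown in both forms. The last line is the 1 contig with 2 changed bases.
T6S, base change A16T: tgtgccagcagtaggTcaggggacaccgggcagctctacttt
D8V, base change A23T: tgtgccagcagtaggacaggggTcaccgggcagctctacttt
Y13C, base change A38G: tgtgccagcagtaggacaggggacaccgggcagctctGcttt
G7V, base change G20T: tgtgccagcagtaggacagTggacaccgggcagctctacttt
S3R, base change A7C: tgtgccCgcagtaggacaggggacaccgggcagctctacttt
S3R, base change C9G: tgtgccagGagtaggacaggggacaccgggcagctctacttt
S4I and Y13D, base changes G11T and T37G: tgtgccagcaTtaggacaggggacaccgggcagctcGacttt

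T6S, threonine to serine, was read in 1 CD4 SP cell with 9 UMIs and 1 DP cell with 22 UMIs. D8V, aspartate to valine, was read in 2 CD4 SP cells, with 7 and 8 UMIs. Y13C, tyrosine to cysteine, was read in 1 CD25+ TRP cell with 11 UMIs and 1 CD4 SP cell with 10 UMIs. G7V, glycine to valine, was read in 2 DP cells, with 5 and 12 UMIs. S3R, serine to arginine, was read in 1 CD73+ Treg cell (A7C, 18 UMIs) and 1 CD4 SP cell (C9G, 12 UMIs). The contig with S4I and Y13D was in a CD73+ Treg cell and had 4 UMIs. There were 4 base changes read in 2 cells each, and 2 of the 4 were in 2 populations.

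The 25 contigs with 1 changed base carried 21 different changes at 18 of the 42 positions. They fell on the 9 junction bases 10 times (40.0% of changes on 21.4% of bases), on the 20 J bases 11 times (44.0% on 47.6%) and on the 13 V bases 4 times (16% on 31.0%). Only contigs with a named CDR3 of the same length could be counted, and 12 of 1484 had no CDR3 named. Changes that prevent a CDR3 from being named would thus be missed, and the split over V, junction and J was not tested. By codon position they were split 8, 9 and 8 over the first, second and last base. Transitions, changes between A and G or between C and T, were 8 of the 25, and 7 of the 25 left the amino acid as it was. With the 3 contigs that had 2 or 4 changes, 35 changed bases were read over 1459 contigs and 61278 CDR3 bases, or 57.1 per 100000. The 21 near variants, which leave out the 7 contigs with an unchanged amino acid sequence, had a median of 10 UMIs and 15 were productive. They were read in 5 DP, 7 CD4 SP, 3 CD25+ TRP, 0 of 126 Foxp3lo TRP (which allows up to 2.38%), 1 CD73- Treg and 5 CD73+ Treg contigs. The share of changes from RNA, reverse transcription, amplification or sequencing was not tested.

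**Figure D5:**
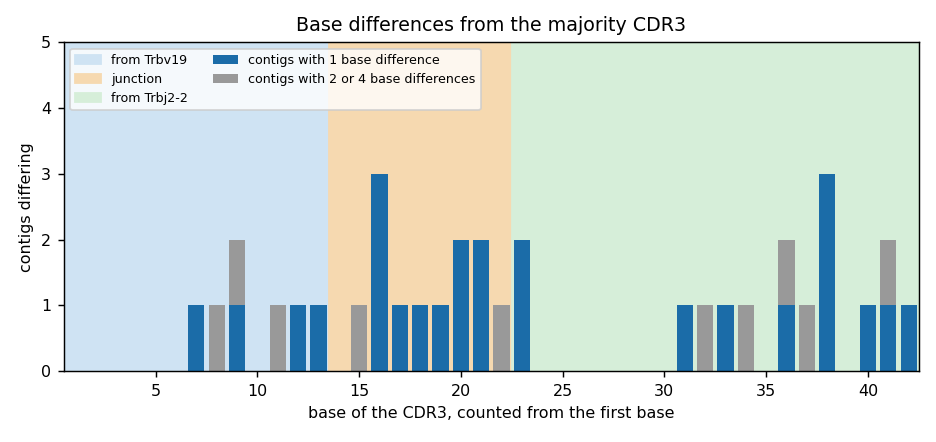
Number of contigs that differ from the majority CDR3 at each of its 42 bases (horizontal axis, counted from the first base), split by contigs with 1 difference (blue) and with 2 or 4 (grey). Shading marks bases from Trbv19, the junction and Trbj2-2; of the 25 contigs with 1 difference, 10 fall on the 9 junction bases.

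The 13 other rearrangements used TRBV19 with a different joint. All 13 were different sequences, 0 of 13 used TRBJ2-2, and all 13 were in cells with a productive α. They were read in 3 DP, 3 CD4 SP, 3 CD25+ TRP and 4 CD73+ Treg cells, with 0 of 126 contigs in Foxp3lo TRP (up to 2.38%) and 0 of 27 in CD73- Treg (up to 11.1%). In 1 of the 13 cells the majority CDR3 was read as well. In 9 of them the CDR3 began at the cysteine codon, as in the majority chain, and 7 of these 9 were productive. In the other 4 the CDR3 as deposited began 2 bases further in and none was productive. Of the sequences below, 4 begin at the cysteine codon and the last is 1 of those 4 that begin further in, chosen after its values were seen. Lower case marks the run that matches germline Trbv19 and capitals the bases after it.
TRBJ1-4 joint: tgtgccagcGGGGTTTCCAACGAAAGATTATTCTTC
TRBJ2-7 joint: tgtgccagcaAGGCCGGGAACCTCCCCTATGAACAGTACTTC
TRBJ1-2 joint: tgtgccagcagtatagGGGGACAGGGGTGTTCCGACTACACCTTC
TRBJ2-1 joint: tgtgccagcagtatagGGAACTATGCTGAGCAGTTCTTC
TRBJ2-7 joint, start further in: tgccagcagtatTTTGAACAGTACTTC

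The TRBJ1-4 joint, of 12 residues and with TRBC1, was read in a DP cell and had 22 UMIs. The TRBJ2-7 joint, of 14 residues, was read in a CD25+ TRP cell of cluster 11 and had 33 UMIs. The TRBJ1-2 joint, of 15 residues and with TRBC1, was read in a CD73+ Treg cell and had 1 UMI and 4 reads. The TRBJ2-1 joint, of 13 residues, was read in a CD73+ Treg cell and had 10 UMIs. The TRBJ2-7 joint that starts further in, of 9 residues, was read in a CD25+ TRP cell and had 9 UMIs. For all 13, the median of 10 UMIs per contig was close to the 12 of the majority CDR3, within a range of 1 to 38.

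The J gene was TRBJ2-2 in 1432 of 1484 TRBV19 contigs (96.5%, 95.4 to 97.4). By population it ranged from 286 of 304 in DP (94.1%, 90.8 to 96.5) to 27 of 27 in CD73- Treg, with overlapping intervals. TRBJ2-7 was named in 29 contigs, TRBJ2-3 and TRBJ2-5 in 5 each, TRBJ2-1 in 4 and TRBJ2-4 in 3, and 3 contigs had no J gene. In 35 of the 1438 contigs with the majority CDR3 (2.43%, 1.70 to 3.37) another J gene was named although the CDR3 is of Trbj2-2 sequence: TRBJ2-7 in 26, TRBJ2-3 in 4, TRBJ2-5 in 3 and TRBJ2-4 in 2. All 35 name a segment downstream of Trbj2-2, and 0 of 1438 (up to 0.209%) name one upstream. Trbj2-7, at chr6:41543810-41543856, starts 853 bases after Trbj2-2. These 35 contigs were longer, with a median of 839 bases (755 to 974) against 595 for those with TRBJ2-2. They had fewer UMIs, a median of 8 (6 to 10) against 12, and 0 of 35 were productive, against 1060 of 1403 (75.6%, 73.2 to 77.8). Whether they hold germline sequence between J segments was not tested, as the table gives no contig sequence outside the CDR3.

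A C gene was rarely named. It was given in 11 of 1484 TRBV19 contigs (0.741%, 0.371 to 1.32), in 33 of 170 contigs of other β V genes (19.4%, 13.8 to 26.2) and in 7635 of 7642 productive α contigs (99.9%). The 8 TRBC2 contigs all had the majority CDR3. The 3 TRBC1 contigs were all other rearrangements with a TRBJ1 segment, the J cluster that lies just upstream of Trbc1.

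Most TRBV19 contigs were full length by the table (1474 of 1484), and 1082 (72.9%, 70.6 to 75.2) carried the deposited productive flag. The productive share was 78.9% in CD73+ Treg, 77.8% in CD73- Treg, 72.7% in CD4 SP, 72.4% in CD25+ TRP, 71.4% in DP and 66.7% in Foxp3lo TRP. The intervals of all pairs overlapped, from 57.7 to 74.8 in Foxp3lo TRP to 73.2 to 83.9 in CD73+ Treg. Of the 402 nonproductive contigs, 378 (94.0%, 91.2 to 96.1) carried the majority CDR3, which has no stop and is in frame, and 371 of those 378 were called full length. The median nonproductive contig had 422 bases and 8 UMIs (7 to 8), and the median productive one 599 bases and 14 UMIs (13 to 14). Nonproductive contigs were thus shorter and had fewer UMIs at the median. How the flag is set is not given in the sources used here, and it may itself depend on contig length.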

How the data were processed

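Gene expression, hashtag and TCRα-enriched libraries of the same cells were made with a 10x Genomics 5′ v2 kit, per the labels' protocols. Seurat 3.1.1, Cell Ranger 3.1.0 and the builds GRCm38 and mm10 are named in the submitters' processing notes. What each tool did, how cells were filtered and how doublets and hashtags were treated is not given in the sources used here. Raw UMI counts per cell were deposited, as were hashtag classes and cluster numbers, and the authors deposited a contig table with read and UMI counts per contig. It holds 21598 contigs in 12771 barcodes, of which 7379 were also in the matrix of 12208 cells. The metadata carry no barcode. Rows were joined in matrix order, and the clonotype matched for 6982 of 6982 cells that have one. A hashtag class labelled Treg alone was taken to be CD73- Treg. Matrix rows carry no gene names, so the sort was not checked by markers.

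All contigs were flagged as cells and high confidence. Contigs cannot be thinned, so recovery was standardised to 4 quartiles of cell UMIs. The share allowed by a count of 0 is that of 3 counts. Germline segments came from GENCODE M21. The CDR3 was matched from its first base to Trbv19 and from its last base to Trbj2-2. Near variants differ from the majority by at most 4 bases and in at least 1 residue. Named were the majority CDR3β, the 10 most frequent others (ties by sequence), J and C genes on at least 3 contigs, every population and cluster, and the next 3 V genes. Scripts (Python 3.11.15, numpy 2.4.6, pandas 2.3.3, scipy 1.17.1, matplotlib 3.10.9) were tested on simulated data. Members and lists were chosen with earlier results of these data known. The alternatives covered UMI minimum, productivity, length, depth, clusters, chains per cell, weighting and barcodes.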

Additional observations from a re-analysis of the deposited data

Results flagged for a closer look

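The contig table also holds 5392 barcodes that are not in the expression matrix and have no population. TRBV19 was found in 1968 of them (36.5%, 35.2 to 37.8), against 1482 of 7379 barcodes in both files (20.1%, 19.2 to 21.0), and this signal outside the compared cells is why they are listed. The majority CDR3 made up 1905 of their 1974 TRBV19 contigs (96.5%, 95.6 to 97.3), 1634 were productive (82.8%) and the median contig had 16 UMIs. More than 1 productive α chain was found in 2620 of 5367 of these barcodes with α (48.8%), against 330 of 7312 matrix cells with α (4.51%). Their part in the higher recovery was not tested.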

How the results depend on the processing

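With 1 pool and 1 sorted sample per population there is no replicate, and no value here has a test. The expression depth limits DP (median 1457 UMIs per cell) and the cell number limits CD73- Treg (454 cells). No paired analysis was possible because each library type and each population is 1 sample with no replicate number.

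With productive contigs alone, recovery was 11.9% in CD25+ TRP, 11.2% in CD4 SP, 7.75% in CD73+ Treg, 7.18% in DP and 6.03% in Foxp3lo TRP. In cells with α it was 15.8%, 14%, 15.9%, 13.4% and 9.32% in the same order, and the median UMIs per contig were 15, 13, 18 and 12 in CD25+ TRP, CD4 SP, DP and Foxp3lo TRP. The majority CDR3 was then 98.0% and TRBJ2-2 99.4% of TRBV19 contigs, and TRBV19 91.2% of β contigs. That last share was 89.8% of full-length contigs, 73.7% without cells with more than 1 β contig and 89.7% of β contigs with a V gene.

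Without the top 5% of cells by UMIs, recovery was 15% in CD25+ TRP, 8.50% in DP and 8.11% in CD73+ Treg, in cells with α 20.0%, 17.5% and 17.5%, and the DP median was 13 UMIs. Without clusters under 5% of their population it was 15% in CD25+ TRP and 8.75% in DP, and 19.8% in CD25+ TRP cells with α. Without cells with more than 1 β contig it was 15% in CD25+ TRP, 13.9% in CD4 SP and 8.53% in DP, and in cells with α 17.7% in DP and 17.5% in CD4 SP. Standardised to UMI quartiles it was 20.2% in DP, 12.0% in CD25+ TRP, 13.8% in CD4 SP, 8.27% in CD73+ Treg and 10.9% in Foxp3lo TRP. With α it was 33.6% in DP, 17.9% in CD25+ TRP, 17.3% in CD73+ Treg and 17.6% in Foxp3lo TRP. With that standardisation and without cluster 11, recovery was 20.2% in DP, 11.5% in CD25+ TRP, 13.3% in CD4 SP, 8.04% in CD73+ Treg and 10.8% in Foxp3lo TRP. With α it was then 31.0% in DP, 17.1% in CD25+ TRP, 17.4% in Foxp3lo TRP and 17.0% in CD73+ Treg. DP ranked 1 of 6 only in these 2 standardised settings and 3 to 5 of 6 otherwise. Median reads per contig, in place of UMIs, were 50 in DP, 40 in CD25+ TRP, 38 in CD4 SP, 42 in CD73+ Treg, 34 in Foxp3lo TRP and 36 in CD73- Treg.

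Leaving out cells with more than 1 productive α gave 8.61% in CD73+ Treg and moved none of the other 20 values beyond its interval. A minimum of 2 UMIs (21 values) and leaving out clusters 11 and 14 (21 values) moved none. The settings on α chains, on cluster 11, on clusters 11 and 14 and on β contigs with a V gene were chosen after seeing the data. The causes of these shifts were not tested.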
